A study of Mus musculus with 27 samples.

Results

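Receptors for the transmitters glutamate, GABA and glycine were followed across 9 groups of mouse neural tissue after nerve injury. Members were all gene symbols of the AMPA (Gria), NMDA (Grin), kainate (Grik) and metabotropic (Grm) glutamate receptors, of the GABA-A (Gabra, Gabrb, Gabrd, Gabrg, Gabrq) and GABA-B (Gabbr) receptors, and of the glycine receptors (Glra, Glrb), without antisense and pseudogene symbols. They had to reach a mean of at least 0.5 CPM (counts scaled to library size) over the ganglion or over the retinal libraries. Of 55367 symbols in each table, 45 belonged to these families and 37 reached the minimum. These were 19 glutamate receptor genes (4 AMPA, 5 NMDA, 5 kainate, 5 metabotropic) and 18 genes for inhibitory receptors (12 GABA-A, 2 GABA-B, 4 glycine). The minimum was met through both tissues by 31 genes, through ganglia only by Gabra4, Gabra5, Gabrd and Grin2d, and through retinal cells only by Glra1 and Glra2. The 8 symbols below it were Gabra6, Gabrq, Grin2c, Grin3b, Glra4, Grm2, Grm3 and Grm6. Just inside stood Glra3 at 0.551 CPM over the ganglia, and just outside Grm3 at 0.432 CPM and Gabrq at 0.431 CPM.

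The ganglion experiment held 5 groups of 3 bulk libraries of L4-L5 dorsal root ganglia, where the somata of sciatic sensory neurons lie. The groups were Ptpn2 knockout mice with sciatic nerve injury, wild-type mice with the injury and RU521, wild-type mice with the injury alone, Ptpn2 knockout mice after sham surgery, and wild-type mice after sham surgery. RU521 inhibits the DNA sensor cGAS and was given into the sciatic nerve; whether the injured mice without it received vehicle is not stated in the labels. The product of Ptpn2 is a phosphatase that removes phosphate from JAK and STAT signalling proteins. The retinal experiment held 4 groups of 3 libraries from picked retinal ganglion cells, the output neurons of the retina, all after optic nerve injury. These were Ptpn2 knockout with interferon gamma (IFNγ), Ptpn2 knockout with PBS, wild type with IFNγ and wild type with PBS, injected into the eye. Per the series text all 4 came from Ptpn2 flox mice whose eyes had received an AAV carrying Cre or GFP 2 weeks before the injury. Injured samples were taken 3 days after injury. The Cre driver used in ganglia, the ages, and whether replicates are separate animals are not stated in the labels or series text. The p-values therefore reflect spread among libraries, which may be technical.

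AMPA, NMDA and kainate receptors are cation channels of pore-forming subunits opened by glutamate, and the metabotropic glutamate receptors act through G proteins. GABA-A and glycine receptors are chloride channels, and GABA-B receptors are paired proteins coupled to G proteins. Sensory neurons are themselves glutamatergic, carry kainate receptors and GABA receptors on their central endings, and keep a high internal chloride, so that GABA depolarises them; GABA-B receptors there reduce transmitter release. Retinal ganglion cells receive glutamate from bipolar cells and GABA and glycine from amacrine cells.

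Ganglion libraries held 14813365 to 22414750 counts and retinal libraries 13239988 to 17122057, so that 3 counts, taken as the floor of detection, were worth 0.131 to 0.208 CPM and 0.168 to 0.287 CPM on the scaled level used below. Levels are CPM scaled by TMM, and fold changes are log2 values with their SE. Ptpn2, summed over all exons, ranged from 10.5 to 26.5 CPM in knockout and from 11.6 to 19.8 CPM in wild-type ganglia, and from 0 to 23.9 CPM in knockout and from 0 to 14.1 CPM in wild-type retinal cells. The gene count does not resolve the deleted part, and the genotypes are those of the labels. Wild-type sham replicates 1 and 3 had the fewest detected genes of the ganglion libraries, 26235 and 26802, with 4.87% and 6.52% mitochondrial counts. Wild-type sham replicate 2 had 34115 genes and 15.2%. RU521 replicate 1 came nearest to the low sham libraries, with 28803 genes and 7.83%. Injured wild-type libraries had 33275 to 34340 genes and 13.2% to 15.7%. The summed level of 12 pan-neuronal genes was 4893, 4449 and 4546 CPM in injured knockout ganglia, 7924, 4640 and 6742 CPM with RU521, 4380, 4420 and 4393 CPM in injured wild type, 7096, 5603 and 5710 CPM in sham knockout, and 9243, 4651 and 8624 CPM in sham wild type. Wild-type sham replicate 2 and RU521 replicate 2 thus lay near the injured wild-type libraries in neuronal RNA, and each receptor below is to be read beside these sums. In bulk tissue, fewer neurons, less RNA per neuron and more RNA from other cells cannot be told apart.

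Per kilobase of exon, the most abundant receptor genes in ganglia were Glrb, the beta subunit that anchors glycine receptors, at 31.2 CPM per kb (range 18.9 to 55.6 over 15 libraries), and Grik1, the kainate subunit GluK1, at 23.7 (9.48 to 47.1). Gabbr2, a subunit of the GABA-B receptor, had 8.05 CPM per kb (3.61 to 17.04) and its partner Gabbr1 7.03 (3.27 to 17.4). The ranges of Glrb and Grik1 overlapped, as did those of both GABA-B genes. Grik1 was thus the leading glutamate receptor gene, and the other kainate genes ranged from 0.325 (Grik5) to 3.25 CPM per kb (Grik4). The pore-forming glycine receptor alpha genes were far below Glrb: Glra3 had 0.0599 CPM per kb, Glra2 0.0877 and Glra1 0.0564. Likewise Grin1, the obligatory NMDA subunit, had 2.37 CPM per kb in ganglia, against 0.056 for Grin2a, 0.0313 for Grin2b and 0.0994 for Grin2d, which encode glutamate-binding NMDA subunits. Another NMDA gene, Grin3a, had 0.624 CPM per kb, nearer to Grin1. Glrb thus stood well above the glycine receptor alpha genes, and Grin1 above the other NMDA genes.

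**Figure D1:**
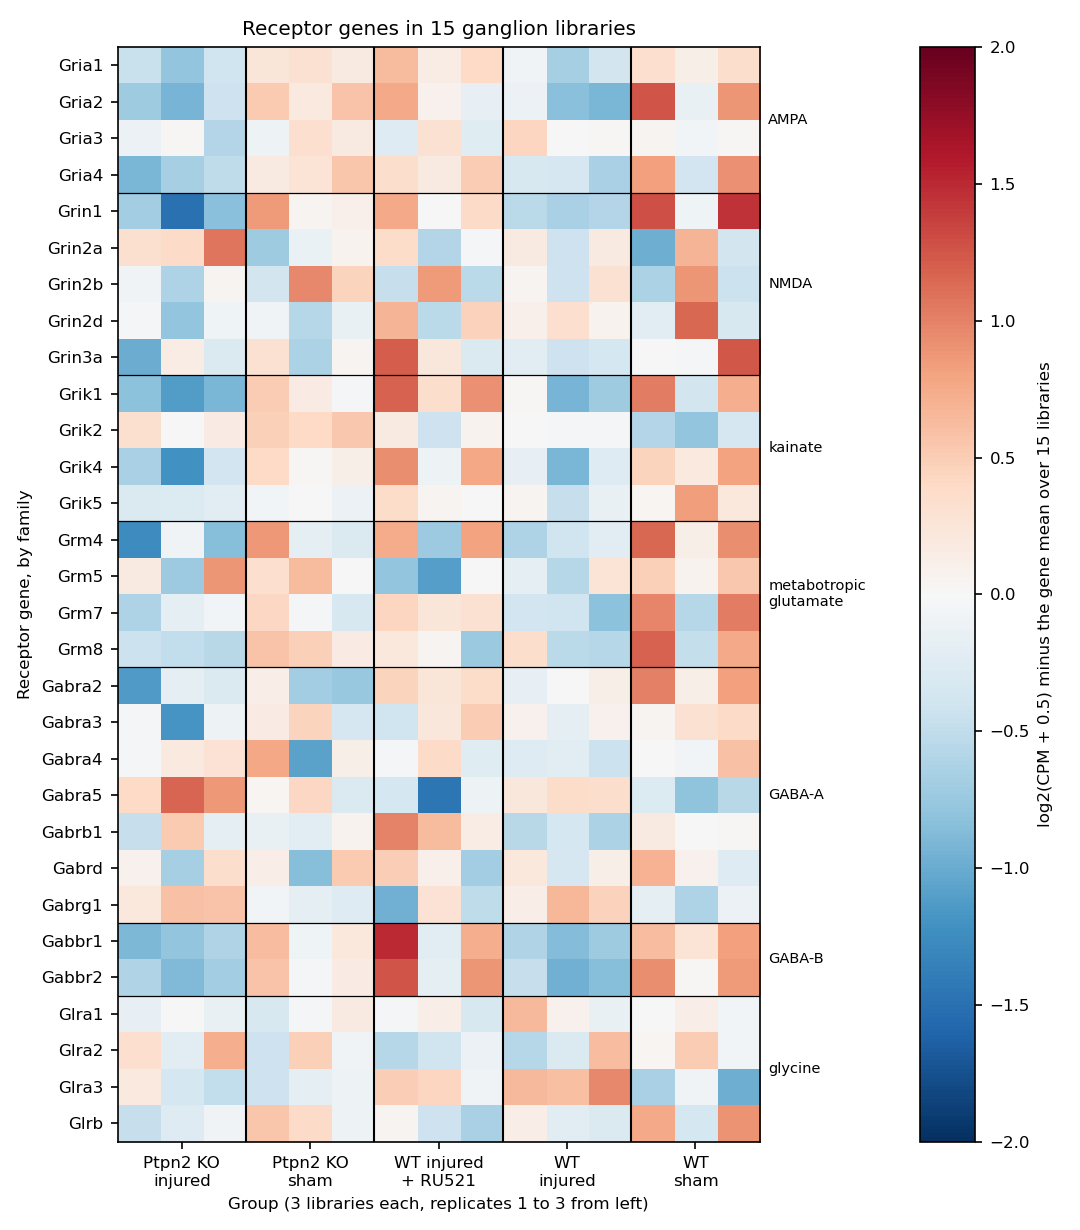
Level of the receptor genes described in the text (rows, grouped by family) in 15 ganglion libraries (columns, 3 per group), as log2(CPM + 0.5) minus the gene's mean over the libraries; red is higher and blue is lower. Most rows are blue in the injured groups without RU521 and red in wild-type sham replicates 1 and 3, while wild-type sham replicate 2 is paler.

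Part of the receptor set was lower after injury in wild-type ganglia, led by Grin1, Gabbr2 and Gria2. Of 35 members tested (all but Glra1 and Glra2), 10 were lower and 1 was higher in injured than in sham wild-type ganglia, by edgeR's quasi-likelihood test with Benjamini-Hochberg adjustment over the whole table at a threshold of 0.05. Of all 18517 genes tested 16.6% were called, 7.98% of the tested genes being lower and 8.6% higher. The 10 were 6 glutamate receptor genes (Grin1, Gria2, Gria4, Grik1, Grik4, Grm7) and 4 GABA receptor genes, Gabbr1 and Gabbr2 among them, and the gene that was higher was Glra3. The median log2 fold change of the 35 members was -0.72, beside 0.00 over all genes. In Ptpn2 knockout ganglia 8 of 35 members were lower after injury than after sham and 0 were higher, where 10.9% of all genes were called, 4.57% as lower and 6.34% as higher, with a median of -0.36 beside -0.01 over all genes. The genes that fell in both genotypes were 7, with Grin1, Gria2, Gria4, Grik1 and Gabbr1 among them, 70% of the wild-type and 87.5% of the knockout list; Gabbr2, Grik4 and Grm7 passed in wild type alone and Gria1 in the knockout alone. The difference between both injury effects was called for 0.448% of all genes and for 0 members by edgeR; DESeq2 called 1.46% of the genes it gave an adjusted p and 0 members, so these lists were not shown to differ. At an unadjusted p under 0.05 it held 2 members (Grik2 and Glra3), beside 9.78% of all genes. DESeq2 called 10 members lower and 0 higher in the knockout, beside 7.08% lower and 8.7% higher among the genes it gave an adjusted p. In a fit that took each library's detected genes as a covariate, 0 members passed in wild type, where 4.58% of all genes were called, and 10 passed in the knockout, where 16.6% were. Leaving out both wild-type sham libraries of few detected genes kept only sham replicate 2 in that group. Calls of that fit are therefore not given, and values that turned in it are given below. Dropping sham replicate 1 or sham replicate 3 in wild type left 5 calls, beside 8.29% and 6.37% of all genes. Dropping sham replicate 2 left 18, beside 33.9%, and dropping injured replicate 2 or 3 left 4, beside 6.74% and 7.19%. In the knockout the count was 0 without injured replicate 2 (5.34% of all genes) or without sham replicate 1 (4.47%). It was 2 without injured replicate 1 or 3 (5.63% and 6.47%), 5 without sham replicate 2 (7.17%) and 4 without sham replicate 3 (5.81%).

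**Figure D2:**
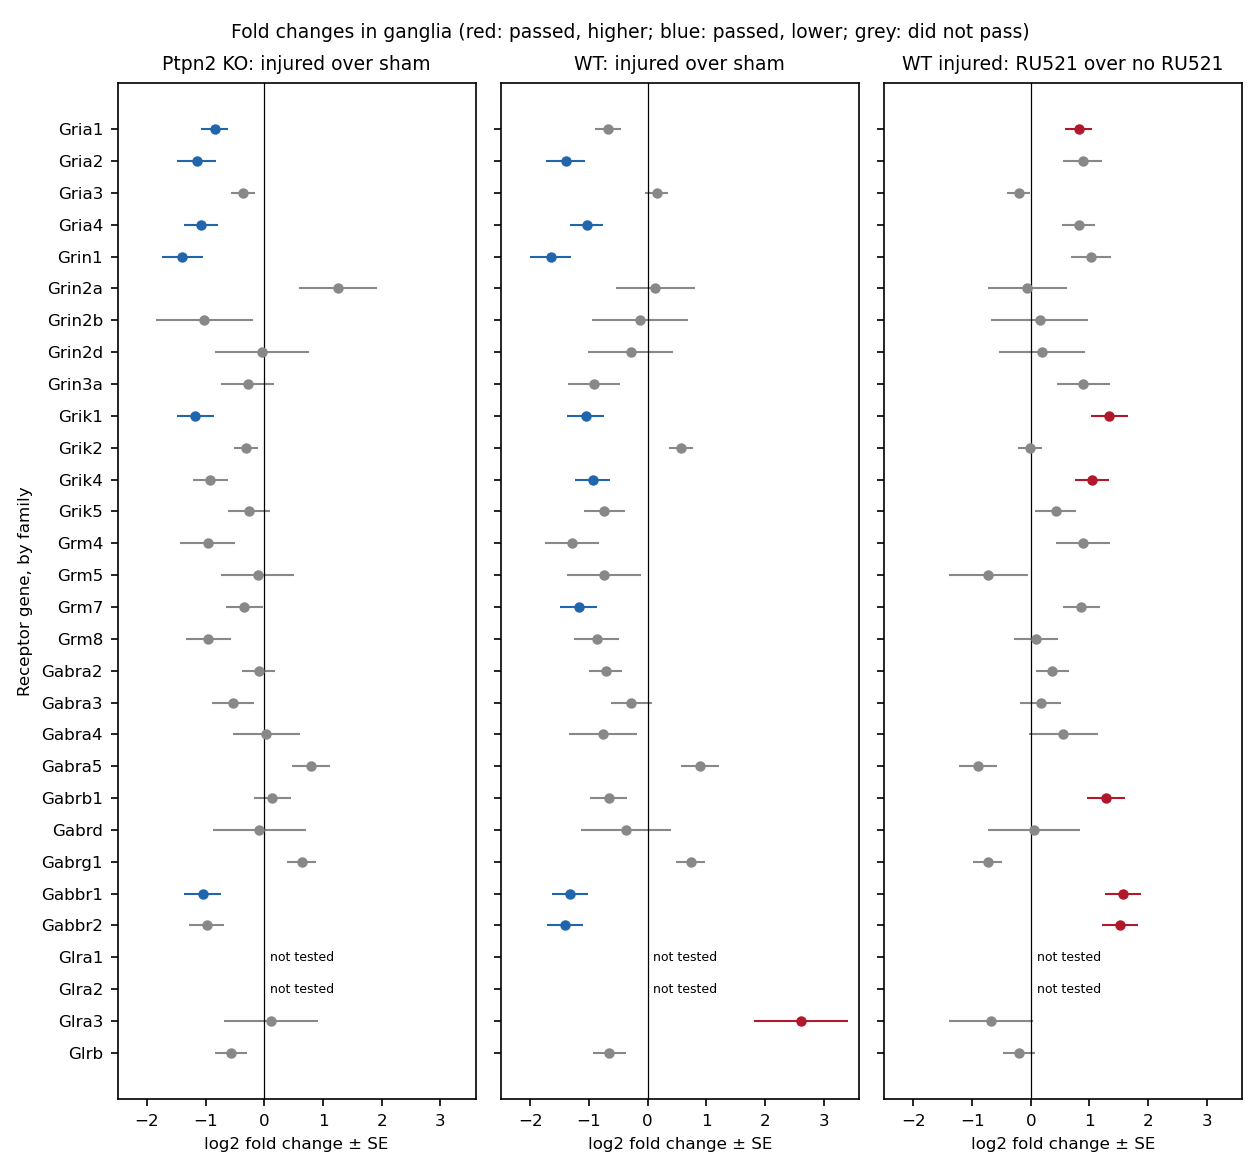
Log2 fold change with SE of the receptor genes described in the text, for injury in Ptpn2 knockout ganglia, injury in wild-type ganglia and RU521 in injured wild-type ganglia; blue and red mark genes that passed the test as lower and higher. Grin1, Gria2, Gria4, Grik1 and Gabbr1 lie left of 0 and are blue in the first and middle panels, and Gabbr1, Gabbr2, Grik1 and Grik4 are red in the RU521 panel, which shares its injured wild-type libraries with the middle panel.

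Gabbr1, Grin1 and Gria2 are GABA-B, NMDA and AMPA genes that fell together in both genotypes, and the bases upstream of their RefSeq starts (GRCm38.p6) are shown to let their promoters be compared. Short motifs were searched on both strands in the 250 bases upstream of every RefSeq promoter: AP-1 (TGANTCA), the cyclic AMP response element (TGACGTCA), part of the RE1 element (TTCAGCACC) and the GC box of Sp1 (GGGCGG). Capitals mark the matches found. Gabbr1 lies at chr17:37045716-37045965 on the plus strand, Grin1 at chr2:25319188-25319437 on the minus strand and Gria2 at chr3:80802836-80803085 on the minus strand.
Gabbr1: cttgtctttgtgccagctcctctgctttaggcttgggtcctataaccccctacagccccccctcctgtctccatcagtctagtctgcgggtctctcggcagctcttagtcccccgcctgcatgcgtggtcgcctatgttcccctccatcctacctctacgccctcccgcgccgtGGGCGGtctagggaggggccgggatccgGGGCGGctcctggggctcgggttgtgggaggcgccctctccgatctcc
Grin1: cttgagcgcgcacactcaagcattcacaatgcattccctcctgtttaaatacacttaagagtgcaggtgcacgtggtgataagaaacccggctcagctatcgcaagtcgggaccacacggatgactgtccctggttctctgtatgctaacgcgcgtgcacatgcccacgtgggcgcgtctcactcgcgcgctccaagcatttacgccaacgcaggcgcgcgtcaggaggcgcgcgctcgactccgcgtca
Gria2: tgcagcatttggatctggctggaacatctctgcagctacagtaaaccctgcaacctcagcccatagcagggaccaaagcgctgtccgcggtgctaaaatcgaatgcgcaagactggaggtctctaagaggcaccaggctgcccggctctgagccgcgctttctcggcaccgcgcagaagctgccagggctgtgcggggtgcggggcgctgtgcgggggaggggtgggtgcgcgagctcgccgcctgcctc
Gabbr1 held 2 GC boxes, and the windows of Grin1 and Gria2 held none of these motifs. These counts use the full 250 bases of each RefSeq window, some of which (Gabbr2 and Grik4 among them) reach into the annotated gene. Promoter rows were found for 23 of the 37 members (30 rows), of which 15 (50%) held a GC box, 1 an AP-1 match and 0 the other letters. Of all 32851 promoters, 32.7% held a GC box, 6.75% an AP-1 match, 1.55% a cyclic AMP element and 0.301% the RE1 letters.

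Kainate receptors were led by Grik1 (chromosome 16, 87895900 to 88290265, minus strand of GRCm38). Grik1 stood at 142, 73.3 and 84.6 CPM in injured wild-type ganglia, against 285, 108 and 231 CPM in sham wild type. It stood at 78.6, 63.7 and 74.2 CPM in injured knockout ganglia, against 197, 156 and 137 CPM in sham knockout. The knockout groups did not overlap, whereas in wild type the low sham replicate 2 lay below the high injured replicate 1. The share of all genes lying wholly below sham after injury is not given here. Separations of genes that fell, here and below, therefore only describe the libraries. The log2 fold change was -1.06 ± 0.31 in wild type (edgeR adjusted p = 0.0319) and -1.18 ± 0.32 in the knockout (adjusted p = 0.0261). With RU521, Grik1 had 316, 179 and 264 CPM, all above the injured wild-type libraries, a log2 fold change of 1.34 ± 0.32 (adjusted p = 0.016). Grik4, the high-affinity subunit GluK4, had 15.9, 9.15 and 14.7 CPM in injured wild type, against 24.3, 20.4 and 31.3 CPM in sham wild type (-0.94 ± 0.29). RU521 libraries had 34.5, 16.5 and 30.8 CPM of Grik4, 1.04 ± 0.29 above injured wild type without overlap. In the knockout Grik4 had 11.2, 7.36 and 13.6 CPM after injury, against 23.6, 17.99 and 19.2 CPM after sham, and missed the threshold (adjusted p = 0.0582).

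Grik2, which encodes the widespread subunit GluK2 and was picked here after its values were seen, did not follow Grik1. Its level was 12.6, 10.1 and 11.3 CPM in injured knockout, 10.1, 9.81 and 9.80 CPM in injured wild type, 14.1, 13.3 and 14.8 CPM in sham knockout, and 6.49, 5.54 and 7.86 CPM in sham wild type. Among the groups without RU521, the sham knockout libraries thus held the most Grik2 and the sham wild-type libraries the least. Sham knockout lay above sham wild type by 1.08 ± 0.20 (adjusted p = 0.0516 by edgeR). DESeq2 called this difference (adjusted p = 0.00022). The difference of both injury effects on Grik2 was -0.88 ± 0.29 and did not pass (adjusted p = 0.275).

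Of the AMPA genes, Gria2 encodes the subunit that makes the channel nearly impermeable to calcium. Gria2 had 14.8, 8.87 and 8.32 CPM in injured wild type, against 39.4, 14.6 and 30.1 CPM in sham wild type. In the knockout it had 9.64, 8.23 and 11.96 CPM after injury, against 23.5, 18.6 and 24.4 CPM after sham. Only the wild-type groups touched, at sham replicate 2, and the log2 fold changes were -1.39 ± 0.34 and -1.15 ± 0.34. Gria4 had 9.34, 9.15 and 7.28 CPM in injured wild type, against 21.2, 8.84 and 22.6 CPM in sham wild type (-1.03 ± 0.28). In the knockout Gria4 had 6.01, 7.23 and 8.06 CPM after injury, against 13.3, 14.2 and 17.5 CPM after sham (-1.08 ± 0.28). For Gria4 the wild-type groups overlapped, since sham replicate 2 lay among the injured libraries, and the knockout groups did not. Gria1, a subunit of calcium-permeable channels when Gria2 is absent, had 4.63, 3.55 and 4.76 CPM in injured knockout, against 7.78, 8.07 and 7.42 CPM in sham knockout (-0.84 ± 0.23). In injured wild type it had 6.10, 3.91 and 4.90 CPM, against 8.28, 7.10 and 8.39 CPM in sham wild type, and did not pass (adjusted p = 0.0548). RU521 libraries held 10.3, 7.25 and 8.70 CPM of Gria1, all above injured wild type (0.82 ± 0.23, adjusted p = 0.0352). Gria3 passed in none of these comparisons and had 19.2 to 39.3 CPM over all libraries.

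Grin1 showed the lowest fold change of all members in wild type. It had 13.4, 12.3 and 12.9 CPM in injured wild-type ganglia, against 48.5, 18.5 and 54.0 CPM in sham wild type. In the knockout it had 11.8, 6.62 and 10.8 CPM after injury, against 35.7, 20.3 and 21.1 CPM after sham. Injured and sham libraries did not overlap in either genotype, and the log2 fold changes were -1.65 ± 0.35 (adjusted p = 0.0066) and -1.40 ± 0.35 (adjusted p = 0.0191). With RU521 Grin1 stood at 33.3, 19.5 and 25.6 CPM, above every injured wild-type library, but missed the threshold (1.02 ± 0.35, adjusted p = 0.0734). The antisense gene Grin1os shares 1307 of the 9700 exon bases of Grin1, and as reads were counted without strand the part of it in these counts was not tested. The other NMDA genes, at 0.662 to 7.66 CPM on average, passed in none of the ganglion comparisons.

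Among the metabotropic receptors only Grm7, an inhibitory receptor of presynaptic endings, was called. Grm7 had 25.8, 25.5 and 18.8 CPM in injured wild type, against 66.9, 22.4 and 68.7 CPM in sham wild type (-1.17 ± 0.32, adjusted p = 0.0216). Sham replicate 2 lay within the injured libraries, and without both other sham libraries the value was 0.11. In the knockout Grm7 had 21.7, 29.2 and 32.4 CPM after injury, against 45.0, 33.2 and 27.0 CPM after sham, and did not pass (-0.34 ± 0.32). Gria4 was the other called gene whose value turned without those sham libraries, to 0.0066. Grm4 and Grm8, of the same subgroup as Grm7, had negative fold changes in both genotypes and did not pass.

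Among GABA-A receptor genes, Gabrb1, a beta subunit, passed with RU521, at 7.72, 5.93 and 4.13 CPM, against 2.32, 2.76 and 2.19 CPM in injured wild type (1.29 ± 0.32, adjusted p = 0.021). All RU521 libraries lay above the injured wild-type libraries. With injury it did not pass in wild type, at 2.32, 2.76 and 2.19 CPM, against 4.18, 3.61 and 3.74 CPM in sham wild type (-0.66 ± 0.32, adjusted p = 0.169). It shares 46 exon bases with Gabra4 on the other strand.

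Of 12 GABA-A genes, 10 had negative and 2 positive fold changes with injury in wild type, with a median of -0.66. In the knockout 7 were negative and 5 positive, with a median of -0.09. Gabrg1 and Gabra5, a gamma and an alpha subunit, were the 2 positive genes in wild type and are given here after their values were seen. Gabrg1 had 60.5, 87.6 and 75.5 CPM in injured wild type, against 48.2, 35.5 and 50.6 CPM in sham wild type (0.73 ± 0.25, adjusted p = 0.0558). In the knockout it had 63.9, 82.5 and 81.6 CPM after injury, against 52.9, 47.8 and 45.8 CPM after sham (0.64 ± 0.25, adjusted p = 0.119). Gabra5, known from extrasynaptic receptors, had 10.01, 11.02 and 10.9 CPM in injured wild type, against 6.93, 4.61 and 5.56 CPM in sham wild type (0.90 ± 0.32, adjusted p = 0.0702). For Gabrg1 all injured libraries without RU521 lay above all sham libraries in both genotypes, yet none of these differences passed the test with TMM scaling. Of all genes tested, 17.5% lay wholly above sham in injured wild type and 19.7% in the injured knockout.

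Both GABA-B genes, whose products pair to form the receptor, moved together. Gabbr1 (chromosome 17, 37045966 to 37075067, plus strand) had 31.4, 26.0 and 29.1 CPM in injured wild type, against 73.5, 58.1 and 85.0 CPM in sham wild type (-1.33 ± 0.31, adjusted p = 0.0106). Gabbr2 (chromosome 4, 46662305 to 46991873, minus strand) had 34.2, 24.1 and 26.0 CPM in injured wild type, against 91.0, 47.9 and 85.4 CPM in sham wild type (-1.41 ± 0.31, adjusted p = 0.0077). In these genes even sham replicate 2 lay above every injured wild-type library without RU521. In the knockout Gabbr1 had 25.4, 27.6 and 31.3 CPM after injury, against 73.9, 45.1 and 55.7 CPM after sham (-1.05 ± 0.31, adjusted p = 0.0396). Gabbr2 had 30.9, 25.5 and 29.2 CPM in injured knockout, against 70.2, 46.1 and 53.1 CPM in sham knockout, and just missed the threshold (-0.98 ± 0.31, adjusted p = 0.0506). Neither gene overlapped between injured and sham knockout libraries. RU521 libraries held 135, 41.2 and 79.9 CPM of Gabbr1 and 114, 41.9 and 87.4 CPM of Gabbr2. These lay above the injured wild-type libraries in 3 of 3 replicates, with replicate 2 the lowest, and gave 1.57 ± 0.31 (adjusted p = 0.00709) and 1.53 ± 0.31 (adjusted p = 0.00762).

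**Figure D3:**
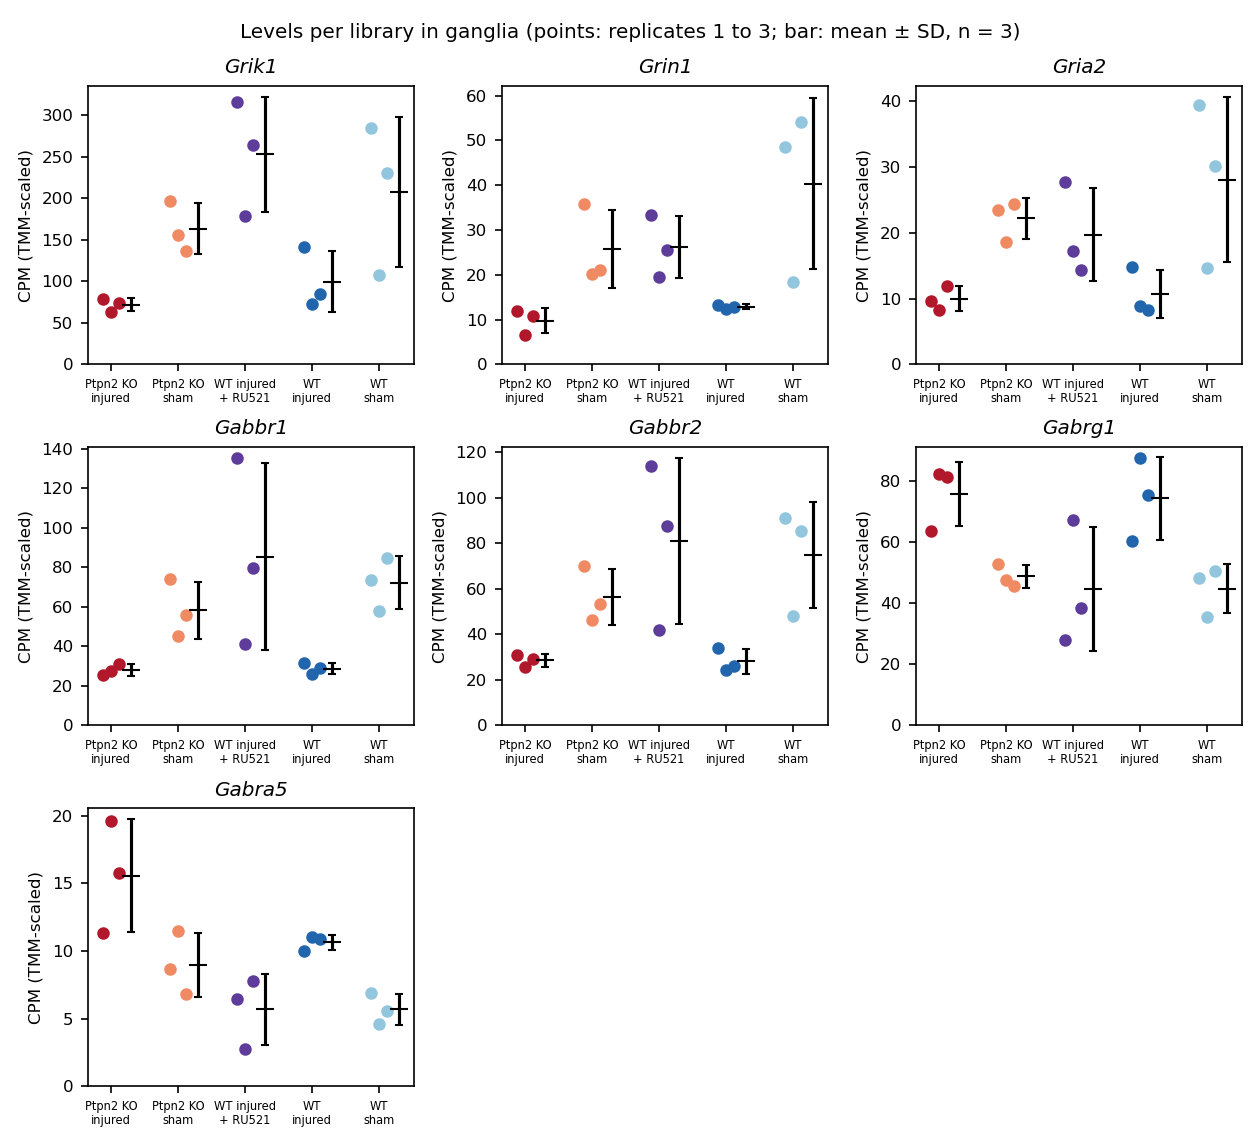
TMM-scaled CPM of 7 receptor genes in each of the 15 ganglion libraries (points), with the mean ± SD of 3 libraries per group as bars. Grik1, Grin1, Gria2, Gabbr1 and Gabbr2 are lower in the injured groups without RU521, and Gabrg1 and Gabra5 are higher there.

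Glycine receptor genes did not share a direction. Glrb had 151, 120 and 113 CPM in injured wild type, against 234, 108 and 259 CPM in sham wild type, and did not pass (-0.65 ± 0.27, adjusted p = 0.116). In the knockout it had 99.9, 115 and 131 CPM after injury, against 204, 181 and 129 CPM after sham (-0.57 ± 0.27). Injured and sham libraries overlapped in both genotypes. Glra3, a pore-forming alpha subunit, rose near the floor of detection, with 1.04, 0.992 and 1.42 CPM in injured wild type, against 0.131, 0.436 and 0 CPM in sham wild type (2.62 ± 0.80, adjusted p = 0.0361). These values rest on 57 counts in injured and 10 counts in sham wild type. In the knockout Glra3 had 0.626, 0.268 and 0.198 CPM after injury, against 0.239, 0.359 and 0.416 CPM after sham (0.12 ± 0.80).

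The genotype comparison asks how loss of Ptpn2 alters the ganglion before and after injury. No receptor gene passed between knockout and wild type in sham ganglia, where 0.135% of all genes were called, nor in injured ganglia, where 2.2% were called. At an unadjusted p under 0.05 there were 2 members in sham (Grik2 and Gabra2), beside 8.68% of all genes, and 1 in injured ganglia (Glra3), beside 13.2%, and DESeq2 called 2 and 0 members, beside 1.2% and 4.05% of the genes with an adjusted p. Gabra2, an alpha subunit of axonal and synaptic receptors, was at -1.09 ± 0.28 in sham knockout with overlapping libraries (edgeR adjusted p = 0.164). Between genotypes after injury, 4 of 10 Schwann cell markers and 3 of 10 endothelial and fibroblast markers were lower in the knockout and 2 of 10 macrophage markers were higher. Without wild-type sham replicate 2, 4 members passed in sham (Grik2, Gabra2, Grin1 and Grm7), beside 5.07% of all genes. In that fit 1 member passed for the difference of injury effects (Grm7), beside 3.46% of all genes.

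RU521 was compared with no RU521 in injured wild-type ganglia, which asks how cGAS inhibition alters the injury response. Of 35 members, 7 were higher and 0 lower with RU521, where 9.58% of all genes were called, 5.1% as higher and 4.48% as lower, and the members' median was 0.42, beside -0.03 over all genes. DESeq2 called 11 higher and 2 lower, beside 9.58% and 7.85% of the genes with an adjusted p. With detected genes as a covariate, members were called in both directions, beside 3.52% of all genes higher and 4.02% lower. Among the 7 were Gabbr1, Gabbr2, Grik1, Gabrb1, Grik4 and Gria1. Libraries with RU521 lay wholly above injured wild type for 12 of 35 members and wholly below for 2, beside 16.1% and 16.9% of all genes. This comparison and the wild-type injury comparison share the 3 injured wild-type libraries, so their values are given side by side only. Gabbr1, Gabbr2, Grik1 and Grik4 had -1.33, -1.41, -1.06 and -0.94 for injury and 1.57, 1.53, 1.34 and 1.04 for RU521. The count of 7 became 1 (Gabbr1) without injured replicate 2, beside 2.45% of all genes, and 2 (Gabbr1 and Gabbr2) without injured replicate 3, beside 3.04%. It was 3 or 4 without RU521 replicate 1 or 3, beside 3.56% and 4.25%. Without RU521 replicate 2 it was 10, beside 14.1%.

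Neuronal markers moved with the receptors. Of 14 sensory neuron markers, 10 fell with injury in wild type and 5 in the knockout, and 7 rose with RU521. Their summed level was 5024, 4891 and 5130 CPM in injured knockout, 10116, 5891 and 7960 CPM with RU521, 5195, 4622 and 4725 CPM in injured wild type, 8327, 6312 and 6295 CPM in sham knockout, and 9945, 6693 and 10324 CPM in sham wild type. Of 10 macrophage markers, 10 rose with injury in wild type and 8 in the knockout, and 3 fell with RU521. Of 10 myelinating Schwann cell markers, 5 rose with injury in wild type, 0 changed in the knockout and all 10 fell with RU521. Their sums were 10376 to 13127 CPM in injured knockout, 8336 to 10131 CPM with RU521, 22284 to 24136 CPM in injured wild type, 10743 to 11282 CPM in sham knockout and 10280 to 16481 CPM in sham wild type. With injury in wild type 7 of 7 neutrophil, 5 of 5 red blood cell, 4 of 10 endothelial and fibroblast and 3 of 10 satellite glia markers also rose and 1 satellite glia marker fell; in the knockout 4, 0, 1 and 0 rose and 2 satellite glia markers fell. With RU521 7 endothelial and fibroblast markers and 1 satellite glia marker fell. The part of these cells in the receptor results was not tested. To set the receptors beside other neuronal genes, the same fits were scaled by the geometric mean of 12 pan-neuronal genes, which moved the median over all genes to 0.64 for injury in wild type, to 0.43 for injury in the knockout and to -0.58 for RU521. The receptor medians were then 0.01, 0.06 and -0.20, opposite in sign to those with TMM since this scale shifts every gene, and as with TMM they lay below the median of all genes for injury and above it for RU521. On this scale 19.2% of all genes were called higher and 0.378% lower for injury in wild type, 4.43% and 0.432% for injury in the knockout, and 0.378% and 5.83% for RU521, so a direction below is to be read against these shares.

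Relative to these neuronal genes, Grin1 and Gabbr2 still fell with injury in wild type, by 0.80 ± 0.26 and 0.64 ± 0.21 on the log2 scale. Grin1 amounted to 6.28%, 6.19% and 6.28% of the neuronal mean in injured wild type, against 11.3%, 8.49% and 12.9% in sham wild type. In the knockout the shares were 5.59%, 3.16% and 5.15% after injury, against 10.6%, 7.70% and 8.01% after sham. In both genotypes the Grin1 share was thus lower in every injured library without RU521 than in the sham libraries. The knockout difference did not pass (-0.92 ± 0.26). Grik2 (1.29 ± 0.27), Gabra5 (1.63 ± 0.35), Gabrg1 (1.46 ± 0.37) and Glra3 (3.09 ± 0.98) were higher with injury in wild type on this scale, and Gabra5 also in the knockout (1.23 ± 0.34). Gabra5 amounted to 5.36%, 9.37% and 7.56% of the neuronal mean in injured knockout, 1.59%, 1.21% and 2.45% with RU521, 4.70%, 5.55% and 5.31% in injured wild type, 2.57%, 4.36% and 2.58% in sham knockout, and 1.61%, 2.11% and 1.33% in sham wild type. Injured libraries without RU521 had the highest shares in both genotypes. With RU521, Gabbr1 (0.86 ± 0.24) and Gabbr2 (0.85 ± 0.21) were higher than in injured wild type on this scale, and Gabra5 (-1.56 ± 0.35) and Glrb (-0.79 ± 0.21) were lower. Grik1 did not pass in any comparison on this scale, at -0.24 ± 0.21 for injury in wild type, -0.72 ± 0.21 in the knockout and 0.72 ± 0.21 with RU521. Its share was 77.8%, 77.7% and 82.7% of the neuronal mean with RU521, against 66.6%, 36.9% and 41.2% in injured wild type.

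**Figure D4:**
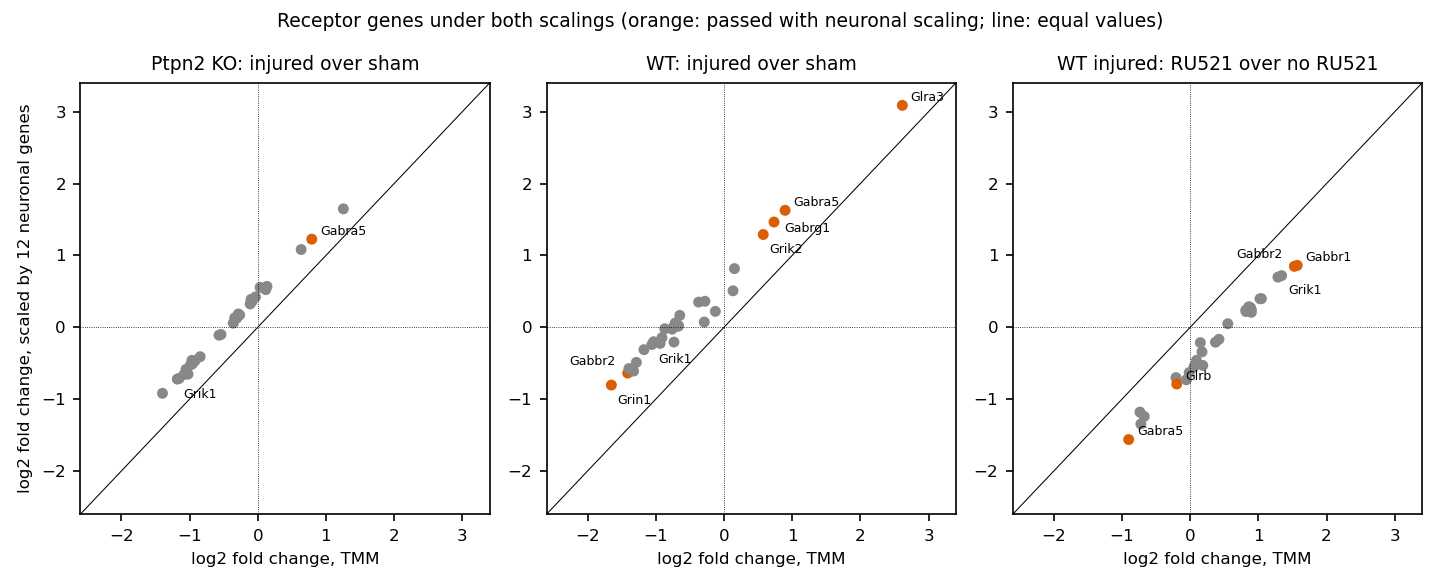
Log2 fold change of the receptor genes described in the text with TMM scaling (horizontal) and with scaling by 12 pan-neuronal genes (vertical) for injury in Ptpn2 knockout, injury in wild type and RU521; orange points passed with neuronal scaling, and the line marks equal values. Points lie above the line for injury and below it for RU521, and Gabra5, Gabrg1, Grik2 and Glra3 stand highest for injury in wild type.

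Genes that serve these receptors were read from lists of partners and transmitter enzymes. Of all genes tested, 7.98% were called lower and 8.6% higher with injury in wild type, and 4.57% and 6.34% in the knockout. With RU521 4.48% were lower and 5.1% higher. Calls of few genes in a list, here and in the next paragraph, are to be read against these shares. Of 11 tested AMPA auxiliary genes, 2 fell with injury in wild type, Frrs1l (-2.06 ± 0.32), which helps assemble AMPA receptors, and Cacng2 (-1.44 ± 0.30), the auxiliary subunit stargazin. The same genes fell in the knockout (-1.15 ± 0.31 and -1.31 ± 0.31), and Frrs1l alone rose with RU521 (1.33 ± 0.32). Frrs1l had 8.73, 5.84 and 5.09 CPM in injured wild type, against 27.4, 26.8 and 27.6 CPM in sham wild type, where replicate 2 was level with the other sham libraries. Of the kainate auxiliary genes, Neto1 rose with injury in wild type (1.14 ± 0.26) and in the knockout (0.85 ± 0.26), while Neto2 did not pass. Of 15 receptor scaffolds, Dlg4, which encodes PSD-95, fell in wild type (-0.79 ± 0.25) and Shank2 in the knockout (-1.02 ± 0.30), and Homer3 fell with RU521 (-1.10 ± 0.32). Of 14 inhibitory scaffolds and partners, Lhfpl4, a GABA-A partner that links the receptor to its synapse, fell in wild type (-1.10 ± 0.27) and in the knockout (-1.32 ± 0.27). Kctd16, an auxiliary GABA-B subunit, fell with injury in both (-0.83 ± 0.27 and -0.89 ± 0.27) and rose with RU521 (1.19 ± 0.27), the pattern of Gabbr1. Trak1, which carries mitochondria along axons, fell in both genotypes (-0.55 ± 0.16 and -0.70 ± 0.16), its relative Trak2 rose in wild type (1.03 ± 0.24), and the adhesion protein gene Nlgn2 rose with RU521 (1.002 ± 0.273).

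Of 14 genes of glutamate transport and synthesis, 3 fell and 1 rose with injury in wild type and 4 rose with RU521 by edgeR, while 0 passed in the knockout (3 at an unadjusted p under 0.05). Slc17a7, a vesicular glutamate transporter, had 19.8, 7.63 and 14.5 CPM with RU521, against 5.98, 5.84 and 6.51 CPM in injured wild type (1.20 ± 0.29). Sham wild type had 18.5, 16.9 and 22.0 CPM, and the log2 fold change of injury was -1.65 ± 0.29. The uptake carrier Slc1a6 fell with injury in wild type (-1.22 ± 0.31) and rose with RU521 (1.43 ± 0.31). Slc17a8, another vesicular transporter, rose with RU521 (1.87 ± 0.48), and Glul, the glutamine synthetase of glia and also a satellite glia marker, rose with injury in wild type (0.49 ± 0.15). Among 10 genes of GABA and glycine transport and synthesis, the glycine transporter Slc6a9 rose with injury in wild type (1.66 ± 0.49) and the GABA transporter Slc6a13 fell with RU521 (-1.73 ± 0.43). The 4 chloride transporters and the 7 tested related receptor genes gave 0 calls by edgeR in ganglia, with at most 1 and 0 at an unadjusted p under 0.05 in any comparison. Slc12a2, the importer that keeps chloride high in sensory neurons, ranged from 73.9 to 122 CPM over the ganglia, and Slc12a5, the neuronal exporter, from 0.0594 to 1.54 CPM.

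In picked retinal ganglion cells, per kilobase, the most abundant were Glrb at 14.4 CPM per kb (range 7.70 to 21.5 over 12 libraries), Gabbr1 at 6.19 (1.22 to 12.7) and Grin1 at 5.12 (0.977 to 19.9). The ranges of these 3 genes overlap. Grik1, second in ganglia, had 0.665 CPM per kb and 0 counts in 6 of 12 retinal libraries, and Gabra5 and Gabrd had 0 counts in 12 of 12. A count of 0 allows up to 0.287 CPM in the library of the smallest scaled total. Of the glutamate-binding NMDA subunits, Grin2b had 0.511 and Grin2a 0.425 CPM per kb. Differences between tissues were not tested, since the tables were made and normalised separately.

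Retinal ganglion cell markers summed to 4392 to 15626 CPM over the libraries. Rod markers reached 602 CPM in wild type with PBS replicate 3, and macrophage markers reached 4085 CPM and Müller glia and astrocyte markers 2053 CPM in knockout with PBS replicate 2, against at most 199 CPM and 740 CPM in the other libraries. The 12 bipolar cell markers summed to 17.03 to 128 CPM, and 4 of them, Grm6 included, were at 0 in all 12 libraries. The 12 amacrine and horizontal cell markers summed to 149 to 260 CPM in knockout with IFNγ, 507 to 1500 CPM in wild type with IFNγ, 208 to 394 CPM in knockout with PBS and 440 to 500 CPM in wild type with PBS; 2 of them, Slc32a1 included, were at 0 in all libraries. These sums were thus lower in knockout than in wild-type libraries with either treatment, without overlap. In each group 4 or 5 of the 12 genes were at 0, so the sums rest on part of the list. The part of these cells in the results below was not tested.

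No receptor gene passed in any retinal comparison. Of 30 members tested (all but Gabra4, Gabra5, Gabrd, Gabrg1, Glra3, Grin2d and Grm5), edgeR called 0 for IFNγ in the knockout, 0 for IFNγ in wild type, 0 for the knockout with IFNγ, 0 for the knockout with PBS and 0 for the difference of both IFNγ effects. Of all 13487 genes, 0%, 0%, 0%, 0.0222% and 0% were called. At an unadjusted p under 0.05 there were 4, 0, 0, 3 and 2 members, beside 6.52%, 4.02%, 4.95%, 9.5% and 5.35% of all genes, and DESeq2 called 4, 0, 0, 3 and 3 members, beside 3.04%, 1.65%, 1.94%, 5% and 2.54% of the genes with an adjusted p. The biological coefficient of variation was 1.27, against 0.262 in ganglia, and many members were at 0 in some libraries and high in others. Gria4, for instance, had 99.4, 67.4 and 12.7 CPM in knockout with IFNγ and 0, 56.4 and 0 CPM in knockout with PBS. Gria1 had 85.9, 72.9 and 4.84 CPM in knockout with IFNγ, against 0, 13.0 and 0 CPM in knockout with PBS. Libraries of 1 group thus differed widely in these AMPA genes. The partner lists also gave 0 calls by edgeR in retinal cells, with at most 3 genes of a list at an unadjusted p under 0.05.

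Grin1 was counted in 12 of 12 retinal libraries. It had 23.3, 26.1 and 16.3 CPM in knockout with IFNγ, against 193, 61.2 and 74.9 CPM in knockout with PBS (-2.32 ± 0.60, edgeR adjusted p = 0.729). In wild type it had 9.48, 23.9 and 35.7 CPM with IFNγ, against 39.6, 41.6 and 51.2 CPM with PBS. All IFNγ libraries lay below all PBS libraries in both genotypes, beside 3.81% and 4.17% of all genes, and neither difference passed over all genes. Gabrb1 had 0 counts in 3 of 3 knockout libraries with PBS, against 5.84, 4.04 and 17.4 CPM in wild type with PBS, and in knockout with IFNγ it was found in replicate 2 alone, at 17.5 CPM. DESeq2 called Gabrb1, Gabra3 and Grin3a in the knockout with PBS; all 3 genes were at 0 counts throughout that group, so no fold is given.

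**Figure D5:**
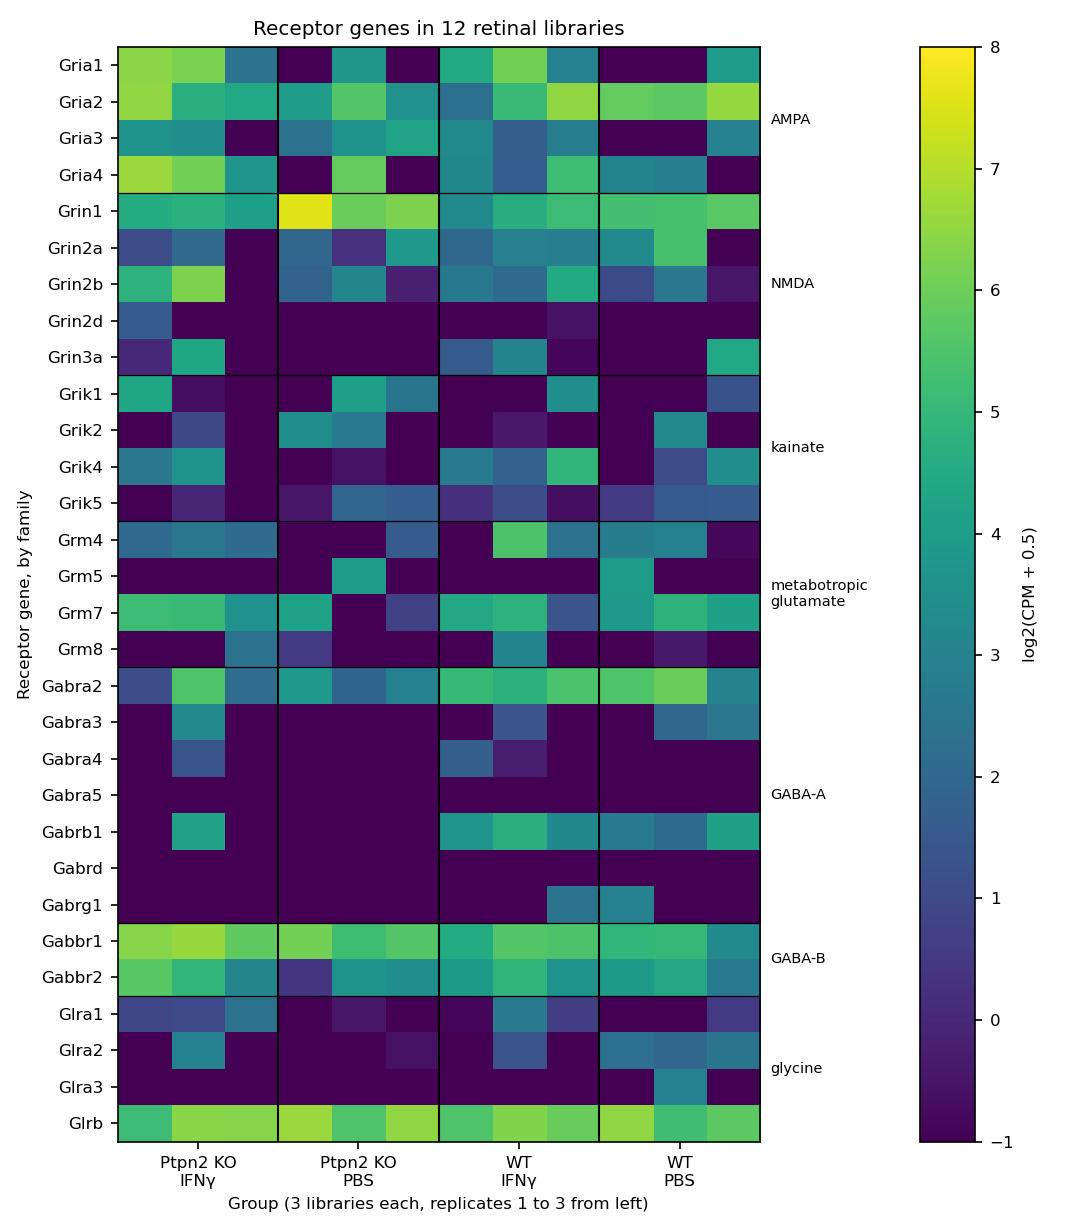
Level of the receptor genes described in the text (rows, grouped by family) in 12 retinal libraries (columns, 3 per group), as log2(CPM + 0.5); dark cells are genes at or near 0 counts. Glrb and Grin1 are bright in all libraries, Gabra5 and Gabrd are dark in all, and most other genes differ between the libraries of a group.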

How the data were processed

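The analysis covers 27 mouse libraries (15 ganglion, 12 retinal). The deposited values are raw counts by gene symbol. Trim Galore, STAR and GRCm38 are named, without versions, in the submitters' processing notes. Ganglion counts were made by the authors with featureCounts 2.0.1 on Ensembl release 101, per the file headers, over all exons, from primary paired alignments of mapping quality 10 or more and without strand, so overlapping and antisense genes are uncertain. The same header gives exon lengths, used by the authors' symbols in both tables for CPM per kb. For retinal reads the counting program is not stated. An unnamed last line in the retinal table, which held the sum of each of 12 columns and so 50% of all counts, was removed.

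Ganglion RNA was amplified with SMART-Seq v4 and cells with Smart-seq2, per the labels' protocols, both without molecular identifiers, so floors of detection cover counting error only. The cell number per retinal library is not stated. Each tissue was fitted with edgeR 4.0.16 in R 4.3.3 (TMM, filterByExpr by group with minimum count 10 and minimum total 15, robust quasi-likelihood, all groups in the fit), with Benjamini-Hochberg adjustment over 18517 or 13487 genes and a threshold of 0.05. SE is the log2 fold change over the root of F. The fit was tested on simulated data. Alternatives were DESeq2 1.42.0, edgeR with DESeq2 size factors, testing without the low count filter, a fit of only the groups compared, detected genes as covariate, pan-neuronal scaling (ganglia), the replicate number as block, and leaving libraries out. Members, partner lists and marker lists were chosen with earlier results of these data known. Named were Grik1, every member called in any of 11 comparisons, the 4 highest members per length in each tissue and up to 4 called partners per list; others are said to be picked after their values were seen, or complete a count. Results of some genes that this rule names are not reported here, and figures show the members that the text describes.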

Additional observations from a re-analysis of the deposited data

How the results depend on the processing

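Of 349 recomputed values for the calls of named members, 208 kept direction and side of the threshold, 139 kept direction only and 2 turned; all 26 calls held with DESeq2 and with its size factors in edgeR. Percentages in brackets are shares of all genes with an adjusted p. Wild-type injury (11 members called, 16.6%) gave 20 without the low count filter (7.31%) and 0 with detected genes as covariate (4.58%). It gave 7 with pan-neuronal scaling (5 higher and 2 lower, beside 19.2% and 0.378%) and 6 with only the groups compared (9.98%). Without both wild-type sham libraries of few detected genes, Grm7 (0.11) and Gria4 (0.0066) turned. Leaving out 1 library gave 4 to 18 (6.37% to 33.9%). Knockout injury (8) gave 13 without the filter (5.08%), 1 with pan-neuronal scaling (4.86%) and 14 with only the groups compared (24.6%). Without 1 library it gave 0 to 5 (4.47% to 7.17%). RU521 (7) gave 14 without the filter (4.79%) and 13 with DESeq2 (17.4%). It gave 4 with pan-neuronal scaling (2 higher and 2 lower, beside 0.378% and 5.83%). With the covariate it gave 5 (3 higher and 2 lower, beside 3.52% and 4.02%), and without 1 library 1 to 10 (2.45% to 14.1%). Knockout in sham (0) gave 1 with DESeq2 size factors (0.146%), 2 without the filter (1.21%), 2 with the covariate (1.04%) and 2 with DESeq2 (1.2%). Without 1 library it gave 0 to 4 (0.0103% to 5.07%). Knockout in injured ganglia (0) gave 1 with the covariate (7.41%) and 0 without any 1 library (1% to 1.51%). The interaction gave 0 to 1, beside 3.46% of all genes without wild-type sham replicate 2. With DESeq2, retinal counts of 0 became 4 for IFNγ in the knockout (3.04%), 3 for the knockout with PBS (5%) and 3 for the interaction (2.54%). They stayed 0 without any 1 library (at most 0.0741%). The cause was not tested, beyond the change in genes or libraries that a setting itself makes. The labels do not say whether replicate numbers pair libraries, and the main fits used no pairing. Same-numbered deviations correlated at -0.116 to 0.208 over the ganglion pairs, which cannot decide this with 3 libraries per group. A replicate block gave 13, 10, 10 and 1 calls for wild-type injury, knockout injury, RU521 and knockout in sham (19%, 13.4%, 11.5% and 0.383%). All 26 named calls held with it. Members under about 1 CPM rest on few counts.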
